A study of Mus musculus with 8 samples.

Results

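The genes described here are 10 components of the circadian clock, Per1, Per2, Per3, Cry1, Cry2, Arntl, Clock, Nr1d1, Nr1d2 and Dbp, taken by symbol from count tables of 23420 gene symbols. All 10 were found in the tables (Arntl, also called Bmal1, under its older symbol) and all 10 passed the filter on low counts. RNA came from stromal cells of the mouse uterus at day 3, with 4 libraries of the genotype Erbb3f/f and 4 of the genotype Erbb3d/d. By usual mouse notation, f stands for a floxed Erbb3 allele and d for the allele that Cre has deleted. The labels used here name no Cre line, no animal age, no event from which day 3 is counted, no hour of the day at collection and no statement on whether cells were cultured. They do not say whether a replicate is 1 mouse or a pool, so each p-value measures the spread between these libraries, which may be technical in part.

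The circadian clock is a feedback loop of transcription. A heterodimer of ARNTL and CLOCK binds E-box elements and drives the Per, Cry and Nr1d genes and the PAR bZIP genes, to which Dbp belongs. PER and CRY proteins then repress that heterodimer, while the nuclear receptors NR1D1 and NR1D2 (REV-ERB alpha and beta) repress Arntl through ROR response elements. In mouse peripheral tissues, Arntl and Nr1d1 or Dbp transcripts therefore peak at opposite times of day, so their ratio within a sample depends on when in the cycle the RNA was taken. Per1 is also an acute target of glucocorticoids and of cAMP signalling. Clock genes also cycle in the uterus.

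The regulatory letters of these arms are shown because the results turn on libraries with low Arntl and high Dbp and Per3. Promoter windows came from RefSeq (GRCm38.p6) and span 250 bases before to 50 bases after a start. Of the 10 genes, 9 had a window, with 13 windows in all, and Per2 had none. Capitals mark a motif, searched on both strands: the E-box CACGTG, the D-box TTATGTAA that PAR bZIP proteins bind, the ROR element core TAGGTCA, and the cAMP response element TGACGTCA. Positions count from the start site, which is 0.
Per3, chr4:151044806-151044880, minus strand, holding 2 D-boxes that begin at -205 and -158: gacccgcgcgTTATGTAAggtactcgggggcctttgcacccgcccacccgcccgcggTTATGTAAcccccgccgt
Per1, chr11:69098763-69098808, plus strand, with an E-box at -166: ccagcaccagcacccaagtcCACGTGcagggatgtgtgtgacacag
Cry1, chr10:85185089-85185134, minus strand, with an E-box at -60: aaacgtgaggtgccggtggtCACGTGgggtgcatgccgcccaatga
Arntl, chr7:113207530-113207559, plus strand, with the ROR element core at 30: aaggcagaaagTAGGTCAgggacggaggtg
Tef, chr15:81802526-81802571, plus strand, a relative of Dbp described further on, with an E-box at -127: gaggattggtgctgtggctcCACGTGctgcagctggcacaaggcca
Over all 32851 windows of this length, 7.15% held the E-box, 0.938% the D-box, 2.61% the ROR element core and 1.79% the cAMP response element. The windows of Cry2, Clock, Nr1d1, Nr1d2 and Dbp held none of the 4 motifs. That says only that these letters are not in these windows.

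Reads in genes numbered 8578575 to 12854367 per library, and the 10 clock genes together took 5185 to 9853 of them. Erbb3, the gene named in the labels, had a mean of 9.64 ± 2.24 CPM (CPM, the read count scaled to library size; SD, n = 4) in libraries labelled Erbb3f/f, against 13.9 ± 4.56 CPM in those labelled Erbb3d/d. The fitted log2 difference was 0.53 (SE 0.28; edgeR quasi-likelihood test, adjusted p = 0.485). Erbb3 reads did not fall under the label Erbb3d/d, so each direction below follows the labels only. Reads are summed over all exons of Erbb3, so loss of a single exon cannot be read from them. Of 12 stromal markers, all were tested, 9 were lower in Erbb3d/d libraries, 3 were higher and 0 were called. The mean log2(CPM + 0.5) of these markers was 9.12 to 9.80 over the 8 libraries, with Hoxa10 at 482 to 1130 CPM, so the labelled cell type's markers were present. Epithelial markers (12 of 15 higher, median log2 fold change 0.62) and smooth muscle markers (11 of 12 higher, median 0.996) were also present. Their mean log2 levels ranged from 5.86 to 6.48 in Erbb3f/f and 6.47 to 7.10 in Erbb3d/d for epithelium, and from 5.95 to 7.01 and 6.92 to 8.06 for smooth muscle. Endothelial markers were higher for 11 of 12 (median 0.12, level 4.02 to 5.14). Immune markers were higher for 6 of 11 tested (level 5.54 to 6.40). Of these 5 lists edgeR called 0 markers. Before adjustment, p was under 0.05 for 12 epithelial and 9 smooth muscle markers, all higher, where 6.64% of all genes tested were, and for 5 stromal markers and 1 immune marker, all lower, where 4.97% of all genes were. It was so for 0 endothelial markers. DESeq2 called 4 epithelial and 2 smooth muscle markers higher (1.39% of all genes) and 2 stromal markers lower (0.404% of all genes), and 0 of the other 2 lists. In bulk RNA fewer cells of a type and less RNA per cell cannot be told apart.

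No clock gene transcript was called different between the genotypes. With edgeR's quasi-likelihood test, 0 of the 10 had an adjusted p under 0.05, where 0% of the 14598 genes tested were called (262 genes, 1.8%, with DESeq2). At an unadjusted p under 0.05 the count was also 0 of 10, against 11.6% of all genes tested. DESeq2 called 0 of the 10. The 4 and 4 values overlapped for all 10 genes. Over all genes tested, they did not overlap for 5.04% (2.56% higher and 2.48% lower in Erbb3d/d). Among only 10 genes, counts of 0 are near these shares, so they do not set the clock genes apart. The fitted log2 fold change was above 0 for 7 of 10, against 48% of all genes, and the median over the 10 was 0.03, against -0.01 over all genes tested. The intervals show, gene by gene and under this fit alone, which sizes of difference remain possible. The widest 95% interval, that of Dbp, ran from -0.48 to 0.76, and the narrowest, that of Clock, from -0.33 to 0.20.

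**Figure D1:**
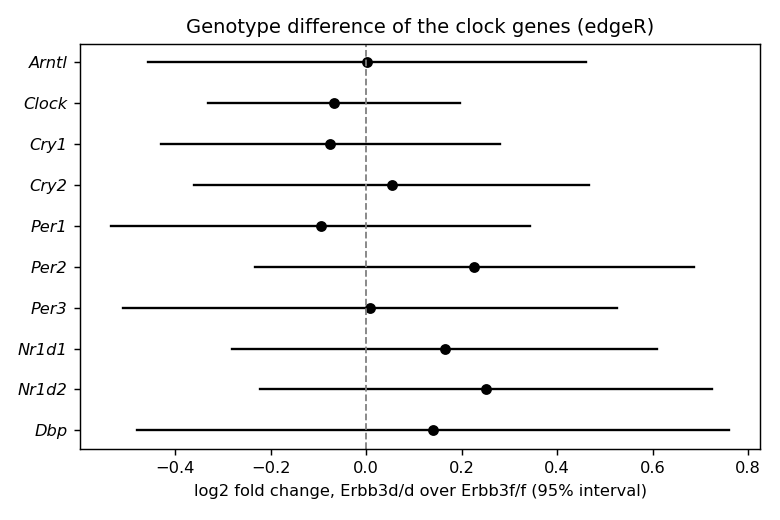
Log2 fold change of each clock gene, Erbb3d/d over Erbb3f/f, from edgeR (points) with 95% intervals (lines), n = 4 libraries per genotype. All 10 intervals include 0; Nr1d2 has the highest point, at 0.25, and Per1 the lowest, at -0.10.

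The activators were described first. Arntl, the partner through which CLOCK binds DNA, lies on chromosome 7 at 113207465 to 113314126 (GRCm38, GENCODE vM21). It had 22.1, 15.3, 18.1 and 20.9 CPM in Erbb3f/f replicates 1 to 4 and 25.5, 17.4, 13.2 and 20.6 CPM in Erbb3d/d replicates 1 to 4. The lowest values were Erbb3f/f replicate 2 and Erbb3d/d replicate 3, and the highest of each genotype was its replicate 1. The means, 19.1 ± 3.04 and 19.2 ± 5.19 CPM (SD, n = 4 each), gave a log2 fold change of 0.00 (SE 0.21), with an interval from -0.46 to 0.46 and an adjusted p of 0.999 (edgeR).

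Clock, which encodes the partner of ARNTL in the activator and cycles little in many tissues, lies on chromosome 5 at 76209868 to 76304792. Its values were 123, 183, 142 and 155 CPM in Erbb3f/f and 135, 144, 137 and 160 CPM in Erbb3d/d, for replicates 1 to 4. All of the Erbb3d/d values fell inside the Erbb3f/f range. The log2 fold change was -0.07 (SE 0.12), and the spread over the 8 libraries, the highest over the lowest value, was 1.48-fold.

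Among the repressors of that heterodimer, the cryptochromes differed in spread. Cry1 (chromosome 10, 85131700 to 85185064) had 18.3, 24.0, 21.4 and 26.3 CPM in Erbb3f/f and 19.1, 21.5, 18.8 and 26.1 CPM in Erbb3d/d, for replicates 1 to 4. Replicate 4 was the highest in both genotypes, and the 8 values spanned 1.44-fold, the narrowest range of the 10 genes. Cry2 (chromosome 2, 92403646 to 92434043) had 55.9, 48.9, 44.9 and 41.6 CPM in Erbb3f/f and 69.5, 49.5, 43.7 and 36.1 CPM in Erbb3d/d. Replicate 1 was the highest and replicate 4 the lowest of each genotype. The log2 fold changes were -0.08 (SE 0.16) for Cry1 and 0.05 (SE 0.19) for Cry2.

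Per1, the period gene that responds to hormones and acute signals, lies on chromosome 11 at 69095217 to 69109960. It had 116, 83.1, 101 and 88.4 CPM in Erbb3f/f and 132, 87.0, 70.9 and 74.0 CPM in Erbb3d/d, for replicates 1 to 4. Replicate 1 was again the highest of each genotype. The lowest were Erbb3f/f replicate 2 and Erbb3d/d replicate 3. Those libraries were the highest of their genotype in Per3, Nr1d1, Nr1d2 and Dbp, described below, so Per1 ran opposite to these genes there. The log2 fold change was -0.10 (SE 0.20).

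Per2 (chromosome 1, 91415982 to 91459324) followed another order. It had 22.2, 31.9, 22.6 and 30.4 CPM in Erbb3f/f and 27.7, 21.0, 37.3 and 38.9 CPM in Erbb3d/d, for replicates 1 to 4. Erbb3d/d replicates 3 and 4 exceeded every Erbb3f/f library and Erbb3d/d replicate 2 lay below them all, so the groups overlapped fully. The log2 fold change was 0.23 (SE 0.21; edgeR adjusted p = 0.714). Epithelial marker levels were also highest in Erbb3d/d replicates 3 and 4, at 6.99 and 7.10 (mean log2). With that level as a covariate the log2 fold change of Per2 was -0.21 (SE 0.24). The level ran mostly higher in Erbb3d/d (6.47 to 7.10, against 5.86 to 6.48), so this fit separates it from genotype poorly. The part of epithelial RNA in the Per2 values was not tested further.

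Per3 (chromosome 4, 151003652 to 151044665), whose promoter letters hold both D-boxes, had 24.8, 41.9, 32.3 and 26.1 CPM in Erbb3f/f and 28.6, 22.5, 45.7 and 28.7 CPM in Erbb3d/d, for replicates 1 to 4. Erbb3f/f replicate 2 and Erbb3d/d replicate 3, the libraries lowest in Arntl, were the highest in Per3. The log2 fold change between genotypes was 0.01 (SE 0.23), with both means at 31.3 and 31.4 CPM, while the 8 libraries spanned 2.03-fold.

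The repressors of Arntl were the most abundant of the 10 per length. Nr1d1 (chromosome 11, 98767932 to 98775333) had 129, 133, 87.7 and 79.8 CPM in Erbb3f/f and 128, 98.0, 153 and 102 CPM in Erbb3d/d, for replicates 1 to 4. Nr1d2 (chromosome 14, 18204054 to 18239127) had 109, 157, 101 and 89.3 CPM in Erbb3f/f and 135, 109, 186 and 113 CPM in Erbb3d/d. Both genes were highest in Erbb3f/f replicate 2 within that genotype and in Erbb3d/d replicate 3 within the other, although Erbb3f/f replicate 1 was close to replicate 2 for Nr1d1. Their log2 fold changes were 0.16 (SE 0.20) and 0.25 (SE 0.21), and the adjusted p of Nr1d2, 0.681 (edgeR), was the smallest of the 10.

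Dbp, a PAR bZIP activator and a direct output of the loop, showed the widest spread of the 10. It lies on chromosome 7 at 45705088 to 45710203 and had 33.6, 58.1, 35.7 and 34.1 CPM in Erbb3f/f and 34.6, 34.8, 71.2 and 36.8 CPM in Erbb3d/d, for replicates 1 to 4. The 6 other libraries lay within 33.6 to 36.8 CPM, and Erbb3f/f replicate 2 and Erbb3d/d replicate 3 stood above them. These values rest on 298 to 904 reads per library. The means were 40.4 ± 11.9 and 44.4 ± 17.9 CPM (SD, n = 4 each) and the log2 fold change was 0.14 (SE 0.28). It was -0.19 without Erbb3d/d replicate 3.

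**Figure D2:**
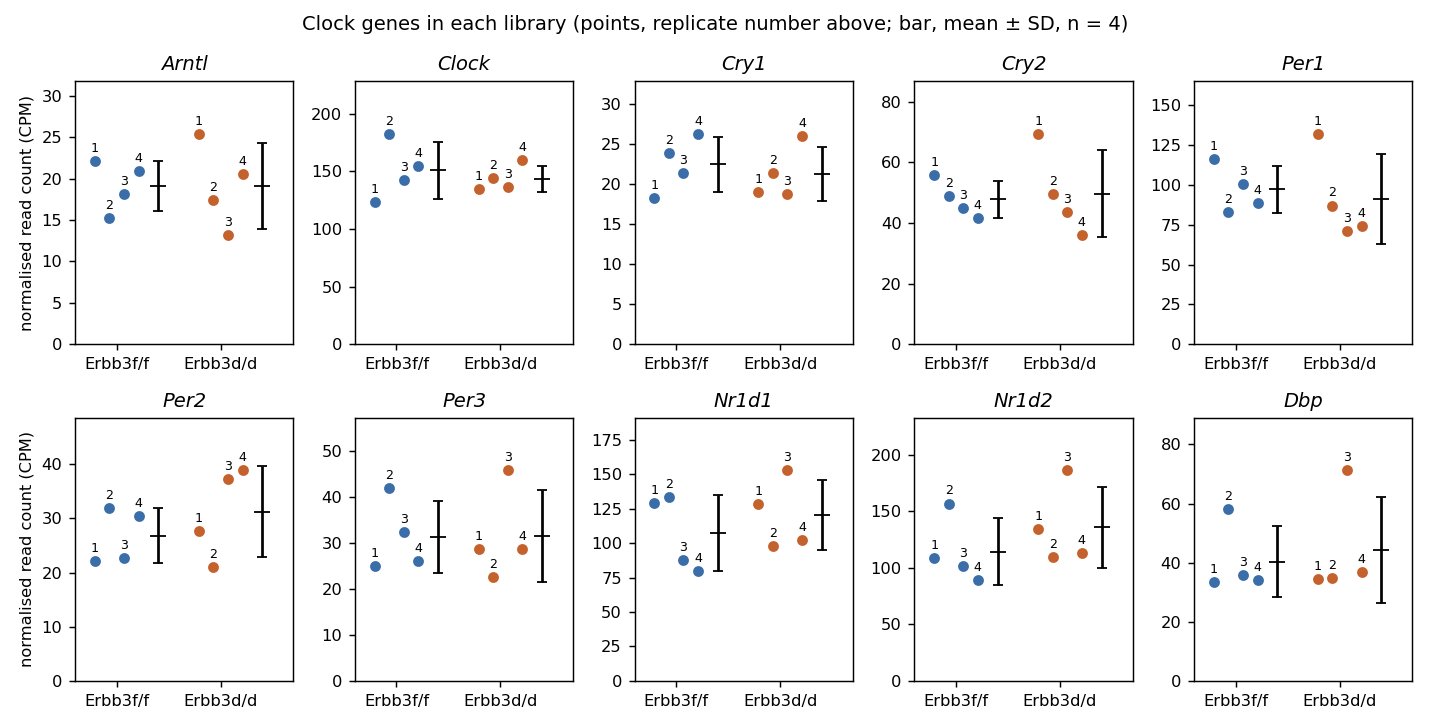
Normalised read count (CPM, linear axes from 0) of the 10 clock genes in each library; points carry the replicate number and bars give mean ± SD (n = 4 per genotype). In Dbp, 6 libraries lie at 33.6 to 36.8 CPM, with Erbb3f/f replicate 2 at 58.1 and Erbb3d/d replicate 3 at 71.2.

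Non-directional libraries cannot assign reads where genes overlap on opposite strands. In GENCODE vM21, 18.0% of the merged exon bases of Dbp are shared with Sphk2, 8.55% of those of Nr1d1 with Thra, 4.67% of those of Cry2 with D930015M05Rik and 0.439% of those of Arntl with Gm45355. The counts of these 4 genes are uncertain for that reason, and the other 6 share none. The share of bases does not bound the share of reads, and how many reads fell on the shared bases was not tested. In Erbb3f/f replicate 2, where Dbp was high, Sphk2 had 95.9 CPM, within the 88.5 to 99.3 CPM of the other Erbb3f/f libraries. In Erbb3d/d replicate 3 Sphk2 had 100.2 CPM, above the 70.4 to 93.7 CPM of the other Erbb3d/d libraries.

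Per kilobase of merged exon, the levels in Erbb3f/f were 34.9 ± 8.94 CPM per kb for Nr1d1, 21.1 ± 5.48 for Nr1d2, 17.3 ± 2.62 for Per1, 13.5 ± 3.96 for Dbp, 10.99 ± 1.82 for Clock, 7.57 ± 0.973 for Cry2, 6.74 ± 1.03 for Cry1, 4.58 ± 0.871 for Per2, 3.26 ± 0.810 for Per3 and 2.54 ± 0.405 for Arntl (SD, n = 4 each). Nr1d1 exceeded Nr1d2 in 8 of 8 libraries, Dbp exceeded Clock in 8 of 8 and Per2 exceeded Per3 in 8 of 8. The order of Per1 and Dbp (6 of 8), of Cry2 and Cry1 (6 of 8) and of Per3 and Arntl (5 of 8) was not the same in every library. Nr1d2 over Per1, Clock over Cry2 and Cry1 over Per2 held in 7 of 8 libraries each. Merged exon length need not be the length of the transcripts present, so close neighbours in this order are not ranked firmly.

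The spread between libraries of the same genotype was then set beside that of other genes. The biological coefficient of variation fitted by edgeR was 27.6% for Dbp, 23.8% for Per3, 21.5% each for Per2, Arntl and Nr1d2, 20.5% for Nr1d1, 20.3% for Per1, 19.5% for Cry2, 17.3% for Cry1 and 13.6% for Clock, with a median of 17.5% over all genes tested. Variation falls with abundance, so each gene was also ranked among the 500 tested genes nearest to it in mean level. Dbp reached the percentile 94.4 of dispersion there, Per1 and Nr1d2 92.4, Nr1d1 90.4, Cry2 88.2, Per3 87.4, Per2 80.4, Arntl 74.2, Clock 67.8 and Cry1 44.6. These ranks are a description with no test.

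A ratio within each library shows where that spread lies. The phase ratio was the mean log2(CPM + 0.5) of Nr1d1, Nr1d2, Dbp and Per3 minus that of Arntl and Clock, and library scaling nearly cancels in it. In Erbb3f/f replicates 1 to 4 it was 0.16, 0.66, 0.15 and -0.18. The Erbb3d/d libraries, in the same order, had values of 0.13, 0.10, 1.19 and 0.04. Erbb3d/d replicate 3 and Erbb3f/f replicate 2 were the highest, and the other 6 libraries lay within -0.18 to 0.16, with both genotypes mixed. In Erbb3f/f replicate 2 the mean of Arntl and Clock was 5.75, inside the 5.67 to 5.89 of the other 6 libraries, with Clock at its highest (183 CPM). Its high ratio thus came from the side of Nr1d1, Nr1d2, Dbp and Per3, at 6.41 against 5.67 to 6.02. Erbb3d/d replicate 3 differed on both sides, at 5.44 for Arntl and Clock and 6.62 for the others. The full range of the phase ratio was 2.59-fold. The genotype means were 0.20 ± 0.35 and 0.36 ± 0.55 (SD, n = 4 each), so the difference of 0.17 was smaller than either SD. It was -0.11 without Erbb3d/d replicate 3, 0.32 without Erbb3f/f replicate 2, 0.04 without Erbb3f/f replicate 4, and 0.05 without both Erbb3f/f replicate 2 and Erbb3d/d replicate 3, a choice made after seeing the data.

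As plain ratios, Dbp over Arntl (in CPM) was 3.80 in Erbb3f/f replicate 2 and 5.41 in Erbb3d/d replicate 3, against 1.4 to 2.0 in the other 6 libraries. Nr1d2 over Arntl was 10.3 and 14.1 in those libraries, against 4.27 to 6.28. Per3 over Arntl was 2.74 and 3.47, against 1.12 to 1.78. The 3 ratios share Arntl as denominator, which is lowest in these libraries, so they are not separate measures. The libraries were read to 9443481 and 12825738 reads in genes, inside the range of the others for Erbb3f/f replicate 2 and just under the deepest library for Erbb3d/d replicate 3. The labels used here give no collection time, so whether these libraries were taken at another hour was not tested.

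**Figure D3:**
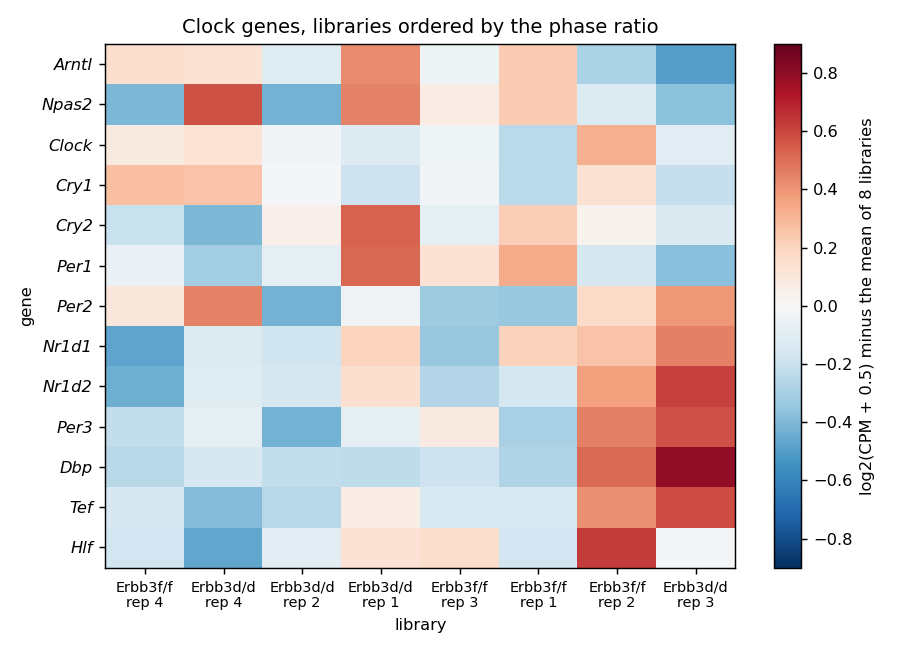
Log2(CPM + 0.5) of clock genes minus each gene's mean over 8 libraries (colour), with libraries ordered from the lowest phase ratio (left) to the highest (right). At the right, Erbb3f/f replicate 2 and Erbb3d/d replicate 3 show high Nr1d2, Per3, Dbp and Tef and low Arntl. Npas2, Cry2 and Clock follow other orders, with Clock highest in Erbb3f/f replicate 2. Per1 is the lowest of its genotype in both of these libraries.

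Tef, a PAR bZIP relative of Dbp that does not enter the phase ratio, had the same pattern. It had 105, 154, 105 and 105 CPM in Erbb3f/f and 121, 97.4, 175 and 88.3 CPM in Erbb3d/d, for replicates 1 to 4. Among 11031 other genes with a mean of at least 10 CPM, Tef had the second highest Pearson correlation with the phase ratio over the 8 libraries (r = 0.90), rank 2. Chek1 (0.90) was first, and Eif3c, Prpf3 and Ccdc125 (0.89 each) followed. The most opposite genes were Rbm22 (-0.90), Prpf38a (-0.89) and 1700007J10Rik, Dkk3 and Zfp383 (-0.88 each). These values are a description over 8 libraries and rest largely on the pair of libraries at the top. Not every clock output followed. Among the other genes of a fixed list of PAR bZIP and rhythmic output genes, r with the phase ratio was highest for Hlf, at 0.43. It was 0.30 for Tspan4, 0.11 for Nampt, 0.06 for Pdk4, -0.33 for Noct and -0.38 for Leo1. Wee1 had -0.39, Lonrf3 -0.40 and Usp2 -0.57, so this list as a whole did not follow Tef. Hlf, the remaining PAR bZIP gene, had 39.0 CPM in Erbb3f/f replicate 2, above 22.1 to 28.0 CPM in its genotype, but 24.8 CPM in Erbb3d/d replicate 3, within 17.9 to 27.4 CPM of the others. Npas2, a paralogue of Clock, had 7.41 CPM in Erbb3d/d replicate 3 but 8.90 CPM in Erbb3f/f replicate 2, where 7.24 to 11.5 CPM was seen in the others of its genotype. Ciart, a repressor of the loop that is listed as Gm129, had only 11 to 36 reads per library.

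**Figure D4:**
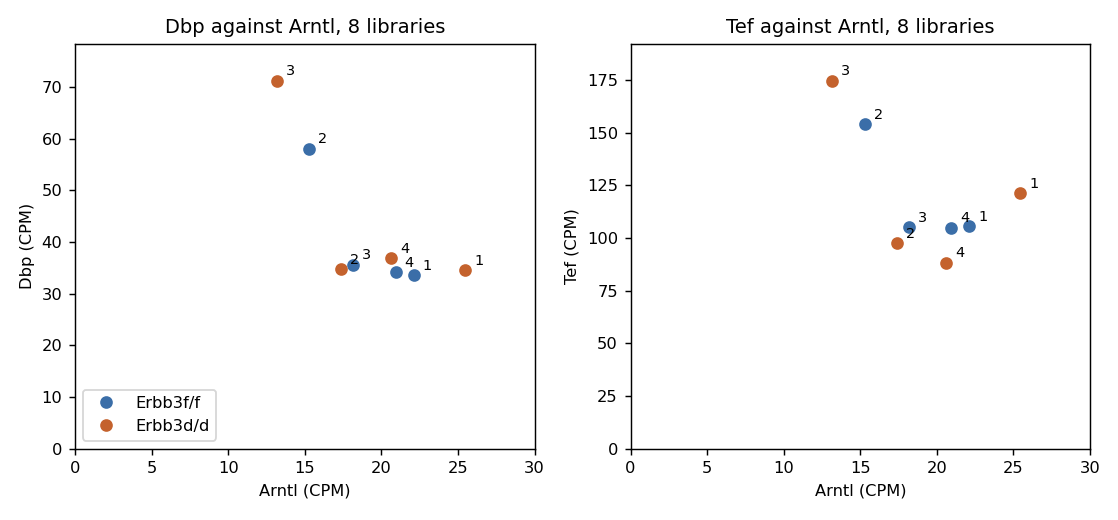
Dbp (left) and Tef (right) against Arntl in each library (CPM, linear axes from 0; numbers are replicates, colours genotypes). Erbb3f/f replicate 2 and Erbb3d/d replicate 3 lie at the upper left of both panels, with Arntl at 15.3 and 13.2 CPM.

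Relations between single genes, on log2(CPM + 0.5), were computed for 5 pairs over the 8 libraries, with p-values adjusted over the 5. Arntl and Dbp ran opposite, with Pearson's r = -0.85 (exact permutation p = 0.00481, adjusted 0.0241) and Spearman's rho = -0.83 (exact p = 0.0154, adjusted 0.0769). Without the 2 libraries farthest from the median of Arntl, Erbb3d/d replicates 1 and 3, r was -0.78, and with values centred within genotype it was -0.85. Erbb3f/f replicate 2 and Erbb3d/d replicate 3 stand apart in Dbp, and without both r was -0.30. That last value says little, because the other 6 libraries span only 33.6 to 36.8 CPM in Dbp and were set apart by Dbp itself.

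Nr1d1 and Dbp had r = 0.67 (exact permutation p = 0.0675, adjusted 0.169) and rho = 0.48 (exact p = 0.243), with r = 0.40 without the 2 libraries farthest in Nr1d1 and 0.66 after centring within genotype. Without the libraries that stand apart in Dbp it was -0.27, over the same narrow span of Dbp. Arntl and Nr1d1 had r = -0.32 (exact permutation p = 0.441, adjusted 0.441) and rho = -0.36 (exact p = 0.389), with r = -0.25 without the 2 libraries farthest in Arntl and -0.32 after centring. Without the libraries that stand apart in Dbp r was 0.65, so the sign of this relation was not stable.

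Per1 was set beside a glucocorticoid-responsive gene and an immediate early gene because it is induced by both kinds of signal. Tsc22d3 (GILZ), a glucocorticoid target, had 197, 171, 184 and 163 CPM in Erbb3f/f and 140, 142, 99.99 and 102 CPM in Erbb3d/d, for replicates 1 to 4. All Erbb3f/f libraries lay above all Erbb3d/d libraries, while those of Per1 overlapped. Tsc22d3 had a log2 fold change of -0.57 (SE 0.13; edgeR adjusted p = 0.215), so the main fit did not call it. DESeq2, and edgeR without Erbb3d/d replicate 2, each called 1 glucocorticoid-responsive gene lower, whose name is not given here. In the main fit Tsc22d3 was the only lower gene of that list at an unadjusted p under 0.05. Over the 8 libraries r between Per1 and Tsc22d3 was 0.61 (exact permutation p = 0.113, adjusted 0.188) and rho 0.57 (exact p = 0.151). Because Tsc22d3 separates the genotypes, the value centred within genotype is given too, with no test, and was 0.80. Without the 2 libraries farthest in Per1, those of replicate 1, r was 0.90. That value was not centred within genotype, so it includes the genotype difference of Tsc22d3. Within each genotype the library highest in Per1, replicate 1, had the highest Tsc22d3 in Erbb3f/f and the second highest, after replicate 2, in Erbb3d/d.

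Fos, an immediate early gene, had 1765, 747, 1502 and 1142 CPM in Erbb3f/f and 2549, 1309, 1485 and 1859 CPM in Erbb3d/d, for replicates 1 to 4. Replicate 1 was the highest of each genotype, as for Per1. Over 8 libraries r between Per1 and Fos was 0.50 (exact permutation p = 0.203, adjusted 0.254) and rho 0.40 (exact p = 0.327). Without the 2 libraries farthest in Per1, which are those of replicate 1, r was -0.21, so the pooled relation rested on them. Centred within genotype over all 8 libraries, r was 0.74, given with no test. Replicate 1 was also the highest of each genotype in the mean level of smooth muscle markers (7.01 and 8.06). A fit that holds that level as a covariate gave log2 fold changes of -0.40 (SE 0.26) for Arntl, -0.31 (SE 0.22) for Cry2 and -0.47 (SE 0.23) for Per1. It called 0 of them. The level ran mostly higher in Erbb3d/d (6.92 to 8.06, against 5.95 to 7.01), so this fit separates it from genotype poorly. The part of muscle RNA or of handling in these values was not tested further.

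**Figure D5:**
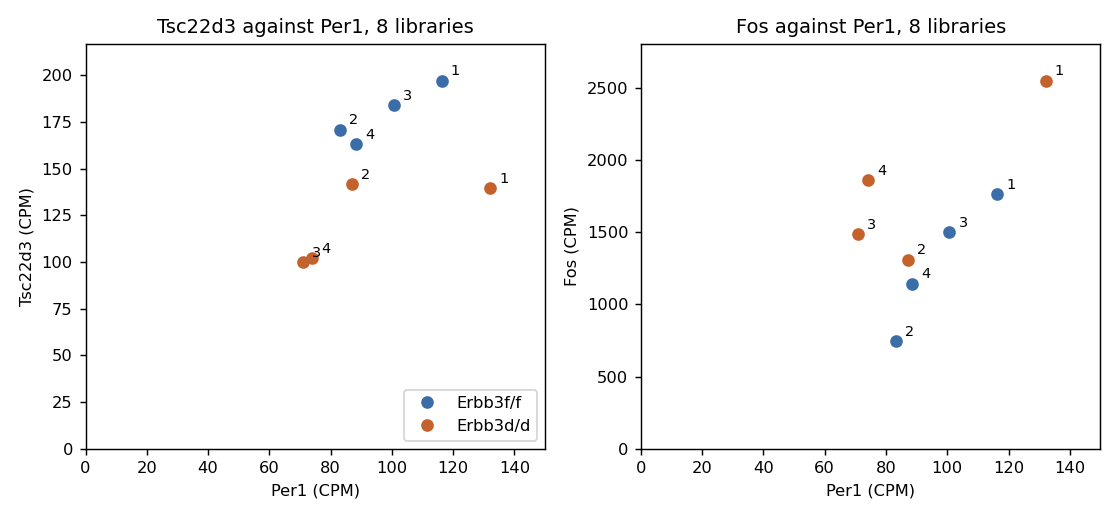
Tsc22d3 (left) and Fos (right) against Per1 in each library (CPM, linear axes from 0; numbers are replicates, colours genotypes). Replicate 1 of each genotype is highest in Per1, at 116 and 132 CPM, and in Fos, at 1765 and 2549 CPM, while the Tsc22d3 values of the genotypes do not overlap.

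Other genes of the clock were read from lists of related components. Of 10 partners of the core loop, all tested, 6 were higher in Erbb3d/d libraries, 4 were lower, 0 were called in edgeR and 1 in DESeq2 (1.8% of all genes), and the median log2 fold change was 0.09. At an unadjusted p under 0.05 there were 4 of 10, 2 in each direction, against 6.64% of all genes higher and 4.97% lower. Bhlhe40 (DEC1), a repressor at E-boxes, had 141, 113, 166 and 190 CPM in Erbb3f/f and 253, 177, 257 and 264 CPM in Erbb3d/d, and only Erbb3d/d replicate 2 fell below the highest Erbb3f/f library. Its log2 fold change was 0.64 (SE 0.17; edgeR adjusted p = 0.279). With DESeq2 the adjusted p was 0.0369, with edgeR and a replicate block 0.0406, and 0.0401 when edgeR ran without Erbb3d/d replicate 2. Bhlhe40 was thus called under 3 of 16 alternatives, with adjusted p-values from 0.0369 to 0.999 over all of them. The value 0.999 came from edgeR with the epithelial covariate, which gave it to every related clock gene listed here. Without that fit the highest was 0.682 (edgeR).

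Rorb, a nuclear receptor of the ROR family, had 102, 79.3, 96.8 and 102 CPM in Erbb3f/f and 86.6, 70.7, 68.1 and 51.9 CPM in Erbb3d/d, for replicates 1 to 4. The groups overlapped by 1 library. Its log2 fold change was -0.46 (SE 0.15; edgeR adjusted p = 0.314). Arntl2, the paralogue of Arntl, had 7.31 to 8.38 CPM in Erbb3f/f and 3.42 to 6.65 CPM in Erbb3d/d, without overlap, a log2 fold change of -0.59 (SE 0.24) and an adjusted p of 0.388 (edgeR).

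Of 10 PAR bZIP and rhythmic output genes, 4 were higher, 6 lower and 0 called in edgeR, with a median log2 fold change of -0.05. At an unadjusted p under 0.05 there were 1 higher and 2 lower, against 6.64% and 4.97% of all genes, and DESeq2 called 2, against 1.8% of all genes. Wee1, a mitotic kinase gene controlled by the clock in liver, had 88.3, 84.7, 73.4 and 119 CPM in Erbb3f/f and 57.4, 60.3, 52.2 and 53.3 CPM in Erbb3d/d, for replicates 1 to 4. The groups did not overlap. The log2 fold change was -0.71 (SE 0.14). Its adjusted p was 0.163 in edgeR, 0.00294 in DESeq2 and, leaving Erbb3d/d replicate 2 out of the edgeR fit, 0.0429. Over 16 alternatives the range was 0.00294 to 0.999, or up to 0.474 without the epithelial covariate fit. Pdk4, a metabolic kinase gene, had 3.38 to 7.21 CPM in Erbb3f/f and 8.75 to 20.4 CPM in Erbb3d/d, a log2 fold change of 1.47 (SE 0.33), and adjusted p-values of 0.203 in edgeR, 0.00423 in DESeq2 and 0.0341 when edgeR ran without Erbb3d/d replicate 2. Its range over the 16 alternatives was 0.00423 to 0.999, or up to 0.577 without the epithelial covariate fit. Noct, the deadenylase-like gene nocturnin, listed as Ccrn4l, had a log2 fold change of -0.31 (SE 0.13) and an adjusted p of 0.396 (edgeR).

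Kinases and ubiquitin ligases set the stability of PER and CRY proteins. Of 10 such genes, 3 were higher, 7 lower and 0 called in edgeR or DESeq2, with 1 at an unadjusted p under 0.05 (11.6% of all genes), and the median log2 fold change was -0.03. Csnk1e, a casein kinase that phosphorylates PER proteins, had 77.9 to 93.8 CPM in Erbb3f/f and 96.3 to 114 CPM in Erbb3d/d, without overlap, with a log2 fold change of 0.26 (SE 0.09) and an adjusted p of 0.337 (edgeR). Csnk2b and Fbxl21 were next by p-value, at -0.17 (SE 0.16) and -0.37 (SE 0.36) on the log2 scale. Of 10 glucocorticoid-responsive genes 4 were higher and 6 lower (median -0.07), and of 11 immediate early genes all 11 were higher and 0 lower (median 0.41). None of these 21 genes was called in edgeR, and at an unadjusted p under 0.05 there were 2 and 1 of them, near the 11.6% of all genes. DESeq2 called 2 of the glucocorticoid-responsive genes, 1 in each direction, and 0 immediate early genes, against 1.8% of all genes.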

How the data were processed

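Polyadenylated RNA was sequenced from 8 libraries, per the labels' protocols, as non-directional pairs of reads. The authors deposited raw counts per gene symbol, 1 table per library. The submitters' processing notes name HISAT2, SAMtools, HTSeq and StringTie and the builds mm10 and GRCm38, with options not given in the sources used here. The 5 lines that name no gene were kept out. Reads in genes were 27.0% to 29.1% of all entries, and 48.3% to 50.8% of entries fell in no gene. Genotypes and replicate numbers came from the titles. R 4.3.3, edgeR 4.0.16 (filterByExpr, TMM, robust quasi-likelihood test, genotype only, Benjamini-Hochberg over 14598 genes, threshold 0.05) gave the main results. CPM used the TMM-scaled library sizes, and log2 levels used a pseudocount of 0.5. DESeq2 1.42.0, other scalings, no filter, a replicate block, marker covariates and leaving libraries out were the alternatives. Correlations used SciPy 1.17.1 with exact permutation over pairings. The edgeR fit was first checked on simulated counts, for the median fitted size of planted changes only. Those changes were larger than any fitted for the clock genes, so the check does not cover changes of that size. No pair of libraries of the same genotype agreed within counting noise (chi-square per gene at least 13.0). The symbols of 4 list genes were matched through RefSeq synonyms.

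The genes, lists and tests were chosen with earlier results of these data known. Named genes were Erbb3, the 10 clock genes, the 3 smallest p-values of each of 3 related clock lists, the partners in 5 fixed relations, and the 5 genes most and least correlated with the phase ratio. Sphk2, Hlf, Npas2, Ciart, the other rhythmic output genes set beside Tef and the single markers were named after their values were seen.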

Additional observations from a re-analysis of the deposited data

Results flagged for a closer look

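A gap test for a lone library was run on 42 sets of 4 values and picked 5, where chance picks about 1 in 20 (2.1 here). Dbp in Erbb3f/f replicate 2 was 58.1 CPM, with the nearest library of its genotype at 35.7 CPM. Dbp in Erbb3d/d replicate 3 was 71.2 CPM, with the nearest at 36.8 CPM. The phase ratio of Erbb3d/d replicate 3 was 1.19, with the nearest at 0.13. It shares the Dbp values, so it is not a separate sign. In Erbb3f/f replicate 1 the mean log2 level of core loop partners was 4.20, below the nearest at 4.38, and that of glucocorticoid-responsive genes was 6.97, above the nearest at 6.54.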

How the results depend on the processing

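Under each alternative, 0 of the 10 clock genes were called, and the smallest adjusted p of any of them was 0.295 (edgeR or DESeq2). Over all genes, DESeq2 called 262, edgeR with a replicate block 52 and edgeR without Erbb3d/d replicate 2 259. Leaving out 1 library gave 0 to 259 calls, with 0 for any other library. Of 160 clock gene values under alternatives, 27 changed sign, in 9 of the 10 genes. Nr1d2 kept its sign, though not its size. The cause was not tested. Epithelial and smooth muscle marker means ran mostly higher in Erbb3d/d, so fits with them as covariates separate marker level from genotype poorly. With the epithelial mean as a covariate, log2 fold changes were 0.20 for Per1, -0.21 for Per2, -0.15 for Per3 and -0.19 for Dbp. With the smooth muscle mean they were -0.31 for Cry2, -0.40 for Arntl and -0.0195 for Nr1d1. With the replicate block they were -0.0028 for Per3 and -0.0243 for Arntl, and with upper quartile scaling -0.0030 for Arntl. Without both Erbb3f/f replicate 2 and Erbb3d/d replicate 3 they were -0.06 for Per3, 0.0199 for Cry1 and 0.0664 for Clock. Leaving out 1 library gave ranges of -0.33 to 0.0120 for Per1, -0.23 to 0.19 for Per3, -0.18 to 0.0080 for Cry1, -0.15 to 0.18 for Cry2, -0.17 to 0.15 for Arntl, -0.15 to 0.05 for Clock, -0.19 to 0.38 for Dbp, 0.11 to 0.38 for Per2, 0.03 to 0.29 for Nr1d1, 0.06 to 0.45 for Nr1d2 and -0.11 to 0.32 for the phase ratio. Same-numbered libraries had deviations that correlated at 0.24, 0.17, 0.0998 and 0.15, all positive. The labels used here do not say whether equal numbers mark paired libraries, and these values do not settle it. The main fit took the libraries as unpaired, and the fit with the replicate block took them as paired. Depth limits the precision most for Arntl, with 146 to 259 reads per library.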
